A study of Sus scrofa with 12 samples.

Results

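The genes described here encode the steroid hormone receptors PGR, ESR1, ESR2 and NR3C1 and the progesterone-binding membrane proteins PGRMC1 and PGRMC2, in the ovaries of pregnant sows. Their probe sets were taken as those whose only gene symbol in the array annotation was 1 of these 6 names. This gave 5 of the 6 genes and 8 of the 24123 probe sets on the array, since no probe set carried the symbol PGRMC2 alone. A porcine Affymetrix array measured total RNA from 12 ovary samples, 6 from high prolificacy sows and 6 from low prolificacy sows. All 12 animals came from an Iberian x Meishan F2 cross and were slaughtered on day 30 of pregnancy, and the labels place them by a higher or lower EBV. Each sample averages the right and the left ovary of 1 sow, by a step that is not stated. Signal in the table ran up to 15.3 and was taken as log2, so a difference of 1 stands for a doubling of signal.

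Steroid receptors of the nuclear family are transcription factors that wait in a complex with heat shock proteins, bind their hormone, and then act on DNA with coactivators or corepressors. PGR binds progesterone and is induced by the luteinising hormone surge in the granulosa cells of the ovulating follicle, ESR1 and ESR2 bind oestradiol and share the ovary unevenly, with ESR2 the form of granulosa cells, and NR3C1 binds cortisol. PGRMC1 and PGRMC2 belong to a separate family of haem-binding proteins of the endoplasmic reticulum, the membrane-associated progesterone receptors, which also bind cytochrome P450 enzymes. In the pregnant sow the corpora lutea are the main source of progesterone throughout gestation.

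The arrays were alike in overall signal, with medians between 4.81 and 4.97 and rank correlations between sows of 0.974 to 0.993. High prolificacy sows 3 and 2 had the lowest mean rank correlation with the other arrays. Luteal genes were among the brightest signals of the tissue, and STAR, which carries cholesterol into mitochondria, measured 14.04 to 14.80 in high prolificacy sows and 14.48 to 14.74 in low prolificacy sows. Of the theca markers, CYP17A1 and GLI1 stayed below the level required for testing, as did FSHR, INHBB, AMH, FOXL2 and VNN1 of the granulosa markers. The 3′ minus 5′ signal of the actin controls, a measure of RNA integrity, was read after control names that looked displaced were moved back. It averaged 2.59 ± 0.45 in high prolificacy sows and 2.12 ± 0.13 in low prolificacy sows (SD, n = 6 each). ALB, a liver gene, exceeded 8 in high prolificacy sow 5 and in low prolificacy sows 1, 3 and 4. Members were compared in fits with these measures as covariates and without these sows.

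A probe set was tested when its value exceeded 4 in at least 6 of the 12 sows, which 13390 probe sets did. Among the members, 5 of 8 probe sets and 4 genes passed: PGR, ESR1, PGRMC1 and a pair of probe sets for NR3C1. Those other than PGRMC1 averaged 4.27 to 4.67 over the 12 sows, below the lowest array median of 4.81. So close to the level for testing, signal over background limits what their differences measure. With limma and Benjamini-Hochberg adjustment, 0 of the 5 member probe sets differed between high and low prolificacy at an adjusted p under 0.05, beside 0% of all probe sets tested. At an unadjusted p under 0.05 the count was 0 of 5 members, beside 5.64% of all tested, which were 755 probe sets. No member had groups that did not overlap, as 0.471% of all tested probe sets did. The smallest adjusted p of limma over the whole table was 0.460, and the median width of a 95% interval on either side of a difference was 0.35 on the log2 scale. In whole ovaries, fewer cells of a type and less RNA per cell cannot be told apart.

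**Figure D1:**
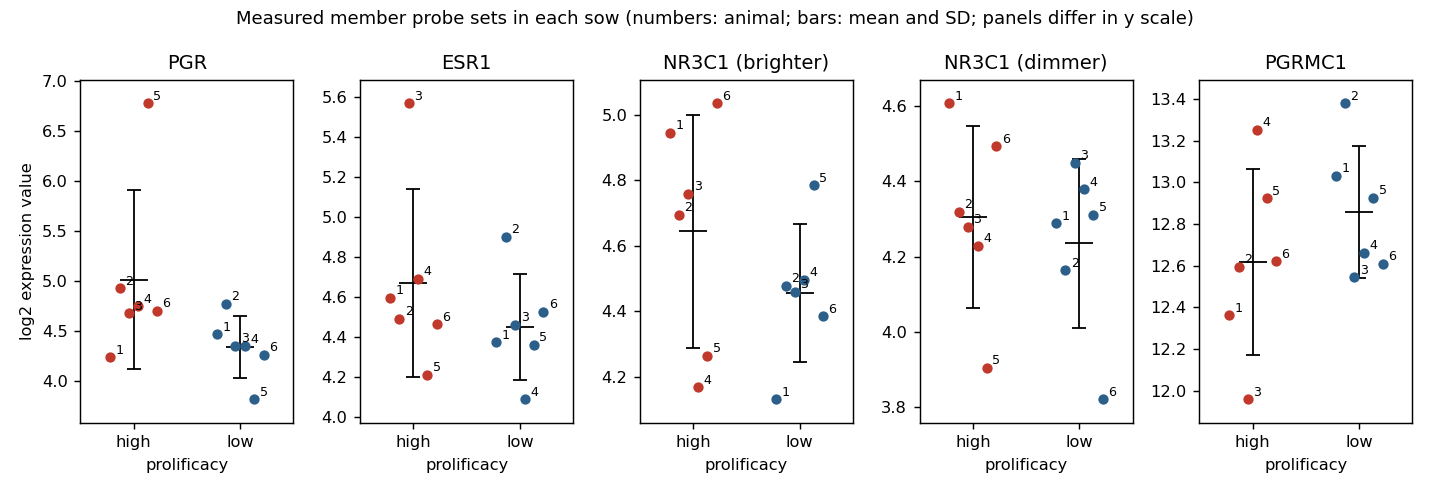
Log2 value of each tested member probe set in each sow, high prolificacy at the left and low prolificacy at the right of each panel, with the animal number beside each point and bars for the mean and SD of 6 sows. High prolificacy sow 5 stands at 6.77 for PGR and high prolificacy sow 3 at 5.57 for ESR1, and the groups overlap in every panel.

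PGR, the nuclear progesterone receptor, measured 4.23 at the lowest, 4.72 at the median and 6.77 at the highest in high prolificacy sows, against 3.82, 4.35 and 4.77 in low prolificacy sows. The groups overlapped, although 5 of the 6 high prolificacy sows lay above the low prolificacy mean. All 6 low prolificacy sows lay below the high prolificacy mean, but so did every high prolificacy sow except sow 5. High prolificacy sow 5 set the top of the range, and the next sow of its group, sow 2, stood at 4.93. The mean was 5.01 ± 0.90 in high prolificacy sows and 4.33 ± 0.31 in low prolificacy sows (SD, n = 6 each). The difference was 0.68 ± 0.35 on the log2 scale (SE), or 1.60-fold, with a 95% interval from -0.08 to 1.44. The limma p was 0.0769 before and 0.888 after adjustment. A two-sided exact permutation test of this probe set alone gave p = 0.0476 without adjustment, and that test was not run over all probe sets. Without high prolificacy sow 5 the difference was 0.32, and without the 4 sows of high ALB, of which it is 1, it was 0.37.

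In that sow several markers of other cell types were also at their highest. High prolificacy sow 5 had the highest value of the 12 sows for 6 of the 9 measured endothelial markers, namely PECAM1, CDH5, TEK, ENG, CLDN5 and ESAM, and for 4 of the 7 measured macrophage and leukocyte markers, CD163, CD14, C1QA and C1QC. PECAM1, an adhesion molecule of vessel walls, measured 10.27 in this sow, against 8.70 to 9.83 in the other high prolificacy sows and 9.11 to 9.39 in the low prolificacy sows. The endothelial score, the mean of the 9 centred marker values, ran from -0.39 to 0.68 in high prolificacy sows and from -0.24 to 0.18 in low prolificacy sows. KDR was the endothelial marker on the array that stayed below the level for testing. PGR correlated with this score at r = 0.75 over 12 sows (rho = 0.45), with permutation p = 0.0261 for r and 0.147 for rho. Adjusted over the 24 relations of members and marker lists computed after the values had been seen, these became 0.157 and 0.413. Leaving out the 2 sows farthest from the median of PGR gave r = 0.50, and leaving out sow 5 alone gave 0.16, so the relation rests on that sow. The PGR difference with the endothelial score as a covariate was 0.67; the part of the vessel and leukocyte markers in the sow 5 value was not tested.

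ESR1, the oestrogen receptor alpha, measured 4.21, 4.54 and 5.57 at the lowest, median and highest in high prolificacy sows, against 4.09, 4.42 and 4.90 in low prolificacy sows. The groups overlapped over most of their range, and 1 sow, high prolificacy sow 3, lay above all low prolificacy sows, with the next of its group at 4.69. The mean was 4.67 ± 0.47 in high prolificacy sows and 4.45 ± 0.27 in low prolificacy sows (SD, n = 6 each). The difference of 0.22 ± 0.21 (SE) had a 95% interval from -0.23 to 0.67, a limma adjusted p of 0.936 and a two-sided exact permutation p of 0.390. Without high prolificacy sow 3 it was 0.04, with ALB as a covariate 0.05, and with the actin 3′ minus 5′ measure as a covariate 0.49.

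The sow with the highest ESR1 also stood at the end of several marker lists. High prolificacy sow 3 was the lowest of the 12 sows for 8 of the 11 luteal markers and the highest for 4 of 9 granulosa markers, FST, HSD17B1, AMHR2 and VCAN. It was also the highest for 4 of 9 stroma and smooth muscle markers, COL1A2, ACTA2, TAGLN and CNN1, and for all 3 measured oocyte markers, GDF9, ZP4 and KIT. The remaining oocyte markers on the array, BMP15, ZP2, ZP3 and DDX4, stayed below the level for testing. GDF9 and ZP4 stood not far above that level in this sow, at 5.46 and 5.68. The lists were not uniform in this sow. Of the remaining granulosa markers, INHA, CYP19A3 and SERPINE2 were above both group means, but INHBA (6.24) and NR5A2 (11.20) were below both. Of the remaining luteal markers, FDXR was below both group means, but LHCGR (11.91) and NR5A1 (7.01) were above both. INSL3, a hormone of theca cells, measured 13.35 in this sow, against 8.22 to 12.18 in the other high prolificacy sows and 6.80 to 11.84 in the low prolificacy sows. The part of these markers in its ESR1 value was not tested.

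ESR2, the oestrogen receptor beta, was near the bottom of the scale in every sow, at 2.13 to 2.18 in high prolificacy sows and 2.14 to 2.18 in low prolificacy sows. Its SD over the 12 sows was 0.015, and in 0 of 12 sows did it exceed 4, so it was not tested. A value at this level gives a bound on the signal of this probe set and no measure of a difference.

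NR3C1, the glucocorticoid receptor, had 4 probe sets, a pair of which were measured. The brighter gave 4.17, 4.73 and 5.04 at the lowest, median and highest in high prolificacy sows, against 4.13, 4.47 and 4.78 in low prolificacy sows. High prolificacy sows 6 and 1 were above all low prolificacy sows, while sows 4 and 5 of the same group were below every low prolificacy sow but sow 1, and the groups overlapped. The difference was 0.19 ± 0.16 (SE), with means of 4.64 ± 0.36 in high prolificacy sows and 4.46 ± 0.21 in low prolificacy sows (SD, n = 6 each), a 95% interval from -0.17 to 0.54 and a limma adjusted p of 0.931. The exact two-sided permutation p was 0.275.

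The dimmer of the pair gave 3.90, 4.30 and 4.61 at the lowest, median and highest in high prolificacy sows, against 3.82, 4.30 and 4.45 in low prolificacy sows. High prolificacy sows 1 and 6 were again the top pair of all 12 sows, and high prolificacy sow 5 and low prolificacy sow 6 the bottom pair. The groups overlapped over nearly the whole range. The difference was 0.07 ± 0.14 (SE; limma adjusted p = 0.985), and it was -0.01 without low prolificacy sow 6 and 0.29 without the 4 sows of high ALB. Over the 12 sows the NR3C1 pair correlated at r = 0.59, beside a median of 0.64 for the 926 genes with 2 tested probe sets.

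The remaining NR3C1 probe sets never exceeded 4. The first stood at 2.49 to 2.63 in high prolificacy sows and 2.52 to 2.59 in low prolificacy sows, and the second at 2.02 to 2.08 in high prolificacy sows and 2.05 to 2.07 in low prolificacy sows. High prolificacy sow 2 was the highest and high prolificacy sow 3 the lowest of all 12 sows in both, as they were for ESR2. What these low probe sets shared was thus the order of the same arrays at the ends of a very narrow range.

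PGRMC1, the membrane component, was the member with signal far above the level for testing in every sow. It measured 11.96, 12.61 and 13.25 at the lowest, median and highest in high prolificacy sows, against 12.54, 12.79 and 13.38 in low prolificacy sows. The groups overlapped, with 4 of 6 high prolificacy sows below the low prolificacy mean and no high prolificacy sow above the highest low prolificacy sow. The mean was 12.62 ± 0.45 in high prolificacy sows and 12.86 ± 0.32 in low prolificacy sows (SD, n = 6 each). The difference was -0.24 ± 0.21 (SE), with a 95% interval from -0.69 to 0.21, a limma adjusted p of 0.931 and a two-sided exact permutation p of 0.305. It was -0.11 without high prolificacy sow 3 and -0.37 without high prolificacy sow 4. With the actin 3′ minus 5′ measure as a covariate it was -0.55.

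**Figure D2:**
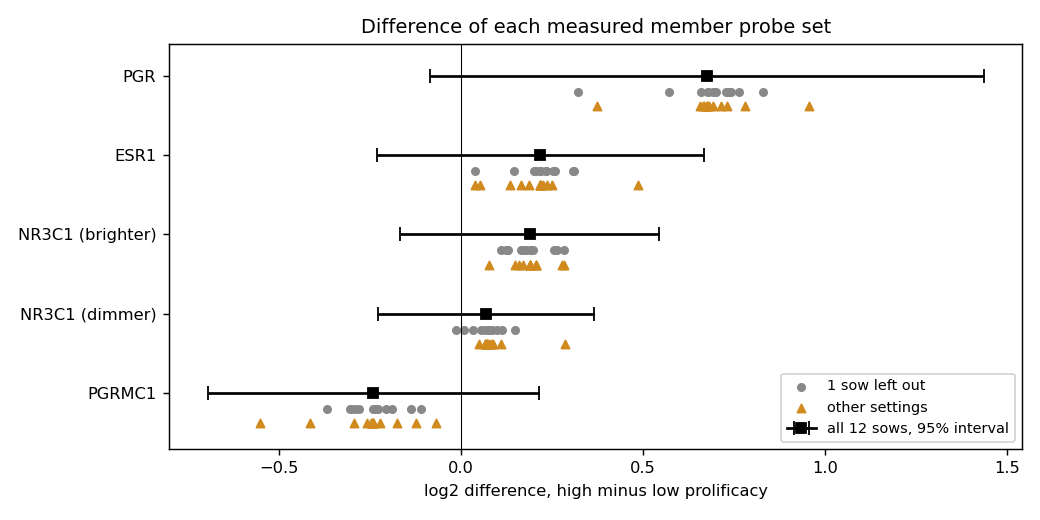
Difference of each tested member probe set, high minus low prolificacy, on the log2 scale, with the 95% interval of the limma fit over 12 sows (squares), the values with 1 sow left out (circles) and the values under the other settings (triangles). All 5 intervals span 0, and the circle of PGR nearest to 0 is the value without high prolificacy sow 5, at 0.32.

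PGRMC1 varied over 1.42 log2 units between sows, and 3 of its 6 correlations with marker scores passed after adjustment by Pearson r. With the luteal score, over all 11 measured luteal markers, it correlated at r = 0.86 (permutation p = 0.00047, adjusted p = 0.00588 over 24 relations) and rho = 0.69 (permutation p = 0.0169, adjusted p = 0.135). With the theca score, over 5 markers, r was -0.85 (adjusted permutation p = 0.00588) and rho was -0.75 (adjusted permutation p = 0.117). These 5 were INSL3, LHCGR, TCF21, NR2F2 and ACTA2, and LHCGR is also in the luteal list. Marker values were centred but not scaled, so INSL3, with the widest range of the 5, weighed most in this score. It ran from 6.80 in low prolificacy sow 2 to 13.35 in high prolificacy sow 3. With the stroma and smooth muscle score, over 9 markers that include ACTA2 and TCF21 of the theca list, r was -0.84 (adjusted permutation p = 0.00792) and rho was -0.61 (adjusted permutation p = 0.236). These relations were computed after the values had been seen, the scores came from the same arrays, and no rank correlation passed after adjustment. The share of all tested probe sets that run with these scores was not computed. The relations can therefore not be read as particular to PGRMC1.

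The sows at both ends weighed unequally in these relations. Low prolificacy sow 2 and high prolificacy sow 4 had the highest PGRMC1 values, 13.38 and 13.25, and theca scores of -1.13 and -0.85. High prolificacy sow 3 had the lowest PGRMC1 value and the lowest luteal score, -0.36. Leaving out the 2 sows farthest from the median of PGRMC1 gave r = 0.77 with the luteal score, -0.68 with the theca score and -0.61 with the stroma score, and none passed after adjustment. Without high prolificacy sow 3 alone, r was 0.75, -0.78 and -0.73 in the same order, with an adjusted permutation p of 0.0688 for each. Without low prolificacy sow 2 alone, r was 0.88, -0.79 and -0.78 in that order, and the stroma relation did not pass (adjusted permutation p = 0.0551). Within groups, after each group's mean was subtracted, r was 0.88, -0.83 and -0.85. The luteal score ran from -0.36 to 0.25 in high prolificacy sows and from -0.12 to 0.13 in low prolificacy sows, and the PGRMC1 difference with it as a covariate was -0.17.

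**Figure D3:**
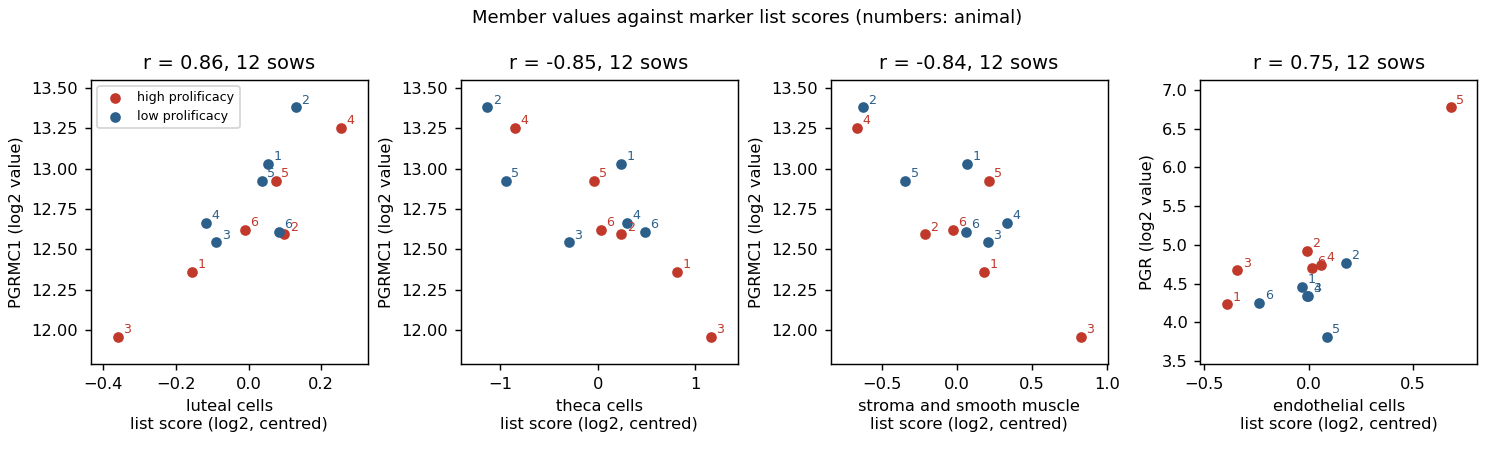
Log2 values of PGRMC1 against the luteal, theca and stroma scores, and of PGR against the endothelial score, 1 point per sow with the animal number, high prolificacy in red and low prolificacy in blue. PGRMC1 runs upward with the luteal score (r = 0.86) and downward with the theca and stroma scores (r = -0.85 and -0.84), and in the PGR panel high prolificacy sow 5 stands alone at the upper right.

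Of the remaining relations of members to marker lists none passed after adjustment. PGRMC1 ran with the endothelial score at r = 0.61 and rho = 0.73, a larger rank correlation than its 0.69 with the luteal score (adjusted permutation p = 0.178 for r and 0.117 for rho). It ran against the granulosa score at r = -0.53 (rho = -0.34, adjusted permutation p = 0.287 for r and 0.575 for rho). NR3C1 ran against the luteal score at r = -0.51 (rho = -0.55, adjusted permutation p = 0.287 for r and 0.289 for rho). ESR1 ran against the macrophage and leukocyte score at r = -0.49 (rho = -0.54, adjusted permutation p = 0.298 for r and 0.289 for rho). Whether the correlations of the nuclear receptors differ from those of PGRMC1 was not tested.

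Between the members themselves 6 pairs were compared over 12 sows, and no pair passed after adjustment. NR3C1 and PGRMC1 had the largest correlation over all sows, r = -0.57 (permutation p = 0.0520, adjusted p = 0.312) and rho = -0.49 (permutation p = 0.109, adjusted p = 0.652), and r = -0.55 without the 2 sows farthest from the median. PGR and NR3C1 gave r = -0.32 (rho = -0.30, adjusted permutation p = 0.657 for r and 0.701 for rho), 0.08 without the 2 farthest sows and -0.58 after group means were subtracted. PGR and ESR1 gave r = -0.10 over all sows and 0.37 without the 2 farthest (rho = 0.17, adjusted permutation p = 0.657 for r and 0.701 for rho). ESR1 and PGRMC1 gave r = -0.36 (rho = -0.18, adjusted permutation p = 0.657 for r and 0.701 for rho), and 0.38 without high prolificacy sow 3. The sign of these last 3 pairs thus turned with 1 or 2 sows.

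Genes whose values were most like each member were ranked by Pearson r over the 12 sows among 6655 other probe sets with 1 gene symbol (6654 for NR3C1), as a description. For PGRMC1 they were EMC3, a subunit of the complex that inserts membrane proteins into the endoplasmic reticulum (r = 0.95), RAB2A, a GTPase of traffic between that compartment and the Golgi (0.95), RNASEK (0.94) and NDUFB4, a subunit of respiratory complex I (0.94). Without low prolificacy sow 2, the sow farthest from the PGRMC1 median, these were still 0.92 to 0.95. For PGR they were ORAI3, a calcium channel subunit (0.90), AKIRIN2 (0.89), PSMB8, a subunit of the immunoproteasome (0.87), and RALA, a small GTPase (0.86). Without high prolificacy sow 5 the same 4 correlations were 0.17, 0.28, 0.25 and 0.46.

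For ESR1 the nearest genes were CRTAP, a collagen-modifying protein (0.90), NUP133 of the nuclear pore (0.88), UBXN6 (0.86) and RTF1, a transcription elongation factor (0.85), and without high prolificacy sow 3 they were 0.74, 0.60, 0.56 and 0.53. For the brighter NR3C1 probe set they were RIN3 (0.81), SEC23A of the vesicle coat that leaves the endoplasmic reticulum (0.76), the chemokine CCL4 (0.74) and NAXD (0.73). Without high prolificacy sow 6 these were 0.77, 0.66, 0.62 and 0.62. The dimmer NR3C1 probe set shared none of these among its own nearest 4 genes, which were HSP70.2 (0.86), APOE (0.85), LOC100624077 (0.83) and ACTG1 (0.82). All these genes were chosen with the left-out sow included, so a fall is built in where that sow stands far from the others. The falls can therefore not be compared between members.

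The surroundings of the receptors were described from lists of 8 kinds, and 0 genes of any list passed the limma test after adjustment, again beside 0% of all probe sets tested. Over all tested probe sets the median difference was -0.01 and 47.6% were higher in high prolificacy sows. Of the chaperones and co-chaperones that hold unliganded receptors, all 15 on the array were measured, 3 higher and 12 lower in high prolificacy sows, with a median difference of -0.07. HSP90AA1, the inducible HSP90 that receptors bind, averaged 12.73 ± 0.12 in high prolificacy sows and 12.80 ± 0.09 in low prolificacy sows (SD, n = 6 each), a difference of -0.07 in its brightest probe set. The other 4 tested probe sets of HSP90AA1 differed by -0.22 to -0.12. FKBP4, the co-chaperone that favours hormone binding, differed by -0.19 (-0.086 without high prolificacy sow 2 or low prolificacy sow 2), and FKBP5, its counterpart that lowers it, by 0.10 in 1 probe set and -0.06 in the other. The kinase co-chaperone CDC37 differed by -0.19, STIP1, which bridges HSP70 and HSP90, by -0.13, and ST13 by -0.11. The signs of HSP90AA1, STIP1, ST13, FKBP5 and CDC37 turned when the actin 3′ minus 5′ measure entered the fit, to 0.04, 0.21, 0.13, -0.03 and 0.10 in that order.

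Nuclear receptor coregulators split evenly, with 7 of 13 measured genes higher and 6 lower and a median difference of 0.02. The coactivator NCOA1 differed by 0.02 (8.22 ± 0.31 in high prolificacy sows and 8.20 ± 0.13 in low prolificacy sows), and over its other 4 tested probe sets by -0.14 to 0.09. SRA1, a coactivator of steroid receptors that acts as RNA, measured 7.92 to 8.25 in high prolificacy sows and 7.92 to 8.62 in low prolificacy sows. All 6 high prolificacy sows were below its low prolificacy mean, but SRA1 was named for its small p, which such a count restates. Its difference was -0.20 ± 0.12 (SE; limma adjusted p = 0.897). NCOA4, now better known as the receptor for ferritin turnover, differed by -0.20 and TRIM24 by -0.20. The histone methyltransferase NSD1 differed by 0.23 in its brighter and 0.045 in its other probe set. Leaving out high prolificacy sow 3 gave -0.087 for NCOA4 and 0.13 for NSD1, and without low prolificacy sow 3 it was -0.079 for TRIM24. NRIP1 had no probe set named by its symbol alone.

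Among other receptors of steroids, NR3C2 and GPER1 had no such probe set either, and a pair of membrane progesterone receptors was measured. PAQR7, membrane progestin receptor alpha, measured 4.28 to 4.85 in high prolificacy sows and 4.65 to 5.35 in low prolificacy sows, and all 6 high prolificacy sows were below the low prolificacy mean. PAQR8, membrane progestin receptor beta, measured 4.88 to 5.80 in high prolificacy sows and 5.14 to 6.16 in low prolificacy sows, with 5 of 6 below that mean. The groups overlapped for both, and the share of all tested probe sets with such counts was not computed. PAQR7 differed by -0.27 ± 0.14 (SE) and PAQR8 by -0.36 ± 0.20 (SE), with limma adjusted p-values of 0.874 and 0.899.

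Relatives and partners of PGRMC1 gave 3 higher and 2 lower of 5 measured, with a median of 0.10. SERBP1, an RNA-binding protein that associates with PGRMC1, differed by 0.10 in its brighter probe set and -0.08 in the other. INSIG1, the sterol sensor that retains SCAP in the endoplasmic reticulum, ran from 9.05 to 13.62 in high prolificacy sows and from 10.19 to 12.16 in low prolificacy sows. High prolificacy sows 2 and 3 were its highest and lowest values. INSIG1 differed by 0.59 ± 0.68 (SE; limma adjusted p = 0.950), by 0.18 without high prolificacy sow 2, by 1.10 without high prolificacy sow 3, by 0.31 without high prolificacy sow 5, and by -0.74 with the actin 3′ minus 5′ measure as a covariate. These INSIG1 values are of its brighter probe set, and its other tested probe set differed by 0.31. SCAP differed by -0.02 (0.0045 after quantile normalization). The growth factor receptor EGFR differed by 0.11 in its brighter and 0.01 in its other probe set. No probe set carried the symbol NENF alone.

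Enzymes that make, inactivate or carry receptor ligands gave 3 higher and 8 lower of 11 measured, with a median of -0.10. The largest differences of the list, chosen here after the values were seen, were those of the oestrogen-forming genes CYP19A3, -1.19 ± 1.54 (SE), and HSD17B1, -0.96 ± 1.06 (SE). CYP19A3 ran from 3.86 to 12.74 in high prolificacy sows and from 6.71 to 12.40 in low prolificacy sows, and HSD17B1 from 5.20 to 12.44 in high prolificacy sows and from 7.67 to 10.75 in low prolificacy sows. The cortisol-forming HSD11B1 differed by -0.04, with 8.19 ± 0.59 in high prolificacy sows and 8.23 ± 0.53 in low prolificacy sows (SD, n = 6 each). The cortisol-inactivating HSD11B2 measured 6.40 to 8.65 in high prolificacy sows and 5.44 to 7.92 in low prolificacy sows, a difference of 0.59 ± 0.54 (SE; limma adjusted p = 0.934). Low prolificacy sows 4 and 5 were its lowest values, at 5.44 and 5.58, and the difference was 0.28 without the first, 0.31 without the second, 0.37 without high prolificacy sow 4 and 0.25 with the actin measure as a covariate. The dehydrogenases HSD17B10, HSD17B4 and HSD17B8 differed by -0.23, -0.19 and -0.16. The HSD17B4 difference was -0.029 without high prolificacy sow 3, and the HSD17B8 difference was -0.080 without high prolificacy sow 2. All 6 high prolificacy sows were below the low prolificacy mean of HSD17B10, a gene named for its small p, which such a count restates. The limma adjusted p of HSD17B10 was 0.874.

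Glucocorticoid receptor targets had a median difference of 0.21, with 11 of 14 measured genes higher and 3 lower in high prolificacy sows. PER1, a clock gene that glucocorticoids induce, measured 8.04 to 8.92 in high prolificacy sows and 7.69 to 8.51 in low prolificacy sows. It was above the low prolificacy mean in 5 of 6 high prolificacy sows. PER1 was the 1 gene of the 14 with an unadjusted limma p under 0.05 (0.0293). No other of the 8 lists held such a gene, beside 5.64% of all tested probe sets. The PER1 difference was 0.43 ± 0.17 (SE), with a limma adjusted p of 0.835. With the actin 3′ minus 5′ measure as a covariate its difference was 0.14. KLF9 differed by 0.50, the phosphatase DUSP1 by 0.36 and the lipase inhibitor ANGPTL4 by -0.38 (-0.70 in its other tested probe set). The DUSP1 difference was 0.19 without high prolificacy sow 2 and 0.22 without low prolificacy sow 1, and that of ANGPTL4 was -0.22 without high prolificacy sow 3 and -0.10 with array weights. TSC22D3, the glucocorticoid-induced leucine zipper, differed by -0.07 in its brighter and -0.37 in its other probe set. The receptor's own probe sets had the differences of 0.19 and 0.07 given above.

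Genes that PGR controls in the preovulatory follicle, known mainly from mice, gave 7 higher and 1 lower of 8 measured, with a median of 0.10. RGS2, a regulator of G protein signalling, measured 9.02 to 11.41 in high prolificacy sows and 9.16 to 11.09 in low prolificacy sows, and differed by 0.56 ± 0.40 (SE; limma adjusted p = 0.921). Its difference was 0.85 without high prolificacy sow 6, 0.37 without high prolificacy sow 2 and 0.028 with array weights. PPARG differed by 0.53 and the chemokine receptor CXCR4 by 0.23. For PPARG the top values were 9.49 in high prolificacy sow 3 and 8.91 in high prolificacy sow 5. High prolificacy sow 5 also had the top PGR, 6.77, but PGR in high prolificacy sow 3 was 4.67, below its group's median of 4.72. The PPARG difference was 0.18 without high prolificacy sow 3 and 0.29 without high prolificacy sow 5.

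Oestrogen receptor targets, a list that holds PGR itself, gave 2 higher and 3 lower of 5 measured, with a median of -0.04. CA12, a carbonic anhydrase, differed by -0.23 ± 0.13 (SE; limma adjusted p = 0.896), with 5 of 6 high prolificacy sows below the low prolificacy mean. The protease CTSD differed by -0.20, the transcription factors MYC and XBP1 by 0.14 and -0.04. GREB1, often used as a readout of ESR1, had no probe set named by its symbol alone.

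**Figure D4:**
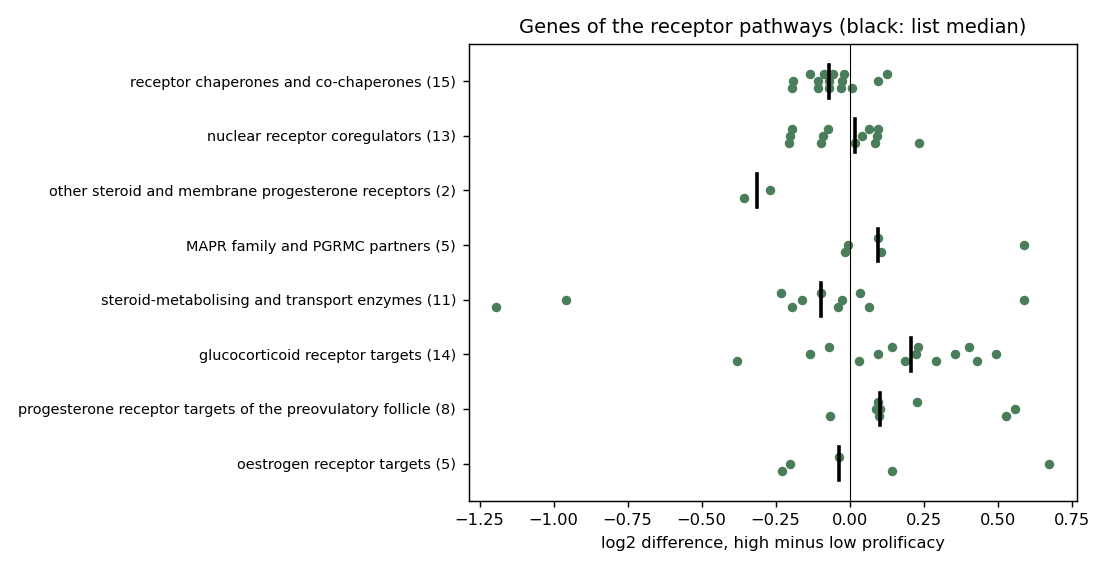
Difference of each measured gene of the 8 receptor pathway lists, high minus low prolificacy, on the log2 scale, with 1 point per gene, the number measured after each list name and a black bar at the list median. The medians lie between -0.31, for the list of 2 membrane receptors, and 0.21, for glucocorticoid receptor targets, and the rightmost oestrogen receptor target is PGR.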

How the data were processed

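RNA samples of 12 sows, 6 per group, were hybridised to 1-colour Affymetrix porcine arrays. Per the submitters' processing notes, GCOS and GCRMA were used, with no version stated there. The log2 values deposited by the authors, 1 column per sow, were used without further normalization; the scale was read from the values. Names came from GEO's platform annotation: 10099 probe sets had 1 symbol, 9989 Entrez IDs matched the reference table and 0 symbols changed. In a block of 62 control probe sets the names looked displaced by 21 places and were moved back before the actin controls were read. The displacement was inferred from the values. The mean gap to the matching spike controls was 5.17 as named and 0.45 after moving. The tests left out 124 controls. No pair of samples held identical values, and no value was missing. The number of arrays limits the precision.

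Differences were fitted with limma 3.58.1 in R 4.3.3 (lmFit and eBayes, no covariate) over all probe sets above 4 in at least 6 of 12 sows, with Benjamini-Hochberg adjustment over the 13390 tested and a threshold of 0.05, and the fit was tested on simulated data. Exact permutation tests took all assignments of sows to groups. Correlations used 100000 permutations, two-sided, in Python 3.11.15 with scipy 1.17.1, on the brightest tested probe set of a gene. A list was described by its measured genes, also at their brightest tested probe set, and a marker score is the mean of marker values after each was centred over 12 sows. Named genes were all member probe sets, up to 4 genes of each pathway list by smallest p, 16 genes fixed by name, and the 4 genes with the highest r to each member. Marker genes were named where they stand beside a member's value. The members and lists were chosen with earlier results of these data known. Alternatives covered the filter, scaling, variance moderation, array weights, the animal number as a block, covariates and left-out sows. Covariates for the endothelial and luteal scores, the fits without the sows of high ALB and the marker correlations were chosen after seeing the data. No sequence or coordinate is given.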

Additional observations from a re-analysis of the deposited data

Results flagged for a closer look

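Each group of 6 sows was examined for 1 sow far from the others in each of the 8 member probe sets, 16 groups in all, by the gap to the nearest sow divided by the group's range, against Dixon's critical value for a group of 6. At this critical value, chance marks about 1 in 20 groups. Of these, 3 groups, all of high prolificacy sows, had such a sow. For PGR it was sow 5, at 6.77 with the nearest sow at 4.93, a gap of 0.727 of the range. For ESR1 it was sow 3, at 5.57 with the nearest at 4.69, a gap of 0.646 of the range. For the brighter of the NR3C1 probe sets below the level for testing it was sow 2, at 2.63 with the nearest at 2.54, a gap of 0.660 of the range, on a probe set that exceeded 4 in 0 of 12 sows.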

How the results depend on the processing

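Of 1238 comparisons of a result with an alternative, 1167 kept their direction and side of the threshold. This count is no measure of stability. The smallest limma adjusted p of the main fit was 0.460, so group differences could hardly change side. Fits with no filter, with other variance moderation or with the replicate block leave each difference unchanged by construction. No probe set of the whole table was called under any alternative except without low prolificacy sow 1, where 1 was, so the count with 1 sow left out ran from 0 to 1. With the actin 3′ minus 5′ measure as a covariate, 2178 probe sets had an unadjusted limma p under 0.05, against 755 in the main fit. Under the remaining alternatives that number ran from 540 to 1066. With 1 sow left out, differences ran from 0.32 to 0.83 for PGR, 0.04 to 0.31 for ESR1, 0.11 to 0.28 and -0.013 to 0.15 for the brighter and dimmer NR3C1 probe sets, and -0.37 to -0.11 for PGRMC1. Under the other alternatives they ran from 0.37 to 0.95, 0.04 to 0.49, 0.08 to 0.28, 0.05 to 0.29 and -0.55 to -0.07. The filter at 6 left PGRMC1 as the only member. The animal number as a replicate block gave 0 calls. Its differences, 0.68 for PGR, 0.22 for ESR1, 0.19 and 0.07 for NR3C1 and -0.24 for PGRMC1, equal those of the main fit by construction. Each number holds 1 high and 1 low prolificacy sow, so the block can change only the error of a difference. Same-numbered sows correlated at -0.46 to 0.17, 2 of 6 pairs over 0.1, and 1 of 6 high prolificacy sows correlated best with its own number.

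Left-out sows moved r from -0.19 to 0.40 for PGR with ESR1, -0.40 to -0.11 for PGR with NR3C1, -0.62 to 0.38 for ESR1 with PGRMC1, 0.16 to 0.85 for PGR with the endothelial score, -0.90 to -0.78 for PGRMC1 with the theca, 0.75 to 0.91 with the luteal and -0.88 to -0.73 with the stroma score. Without the 2 farthest sows r was 0.37 for PGR with ESR1, 0.077 for PGR with NR3C1, and -0.68, 0.77 and -0.61 for PGRMC1 with the theca, luteal and stroma scores. Without high prolificacy sows 2 and 3 these last were -0.78, 0.83 and -0.79, past no threshold after adjustment, and ESR1 with PGRMC1 gave 0.40. After group means were subtracted, PGR with the endothelial score gave 0.85 and passed, at an adjusted permutation p of 0.0207.

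Of 34 other named genes, 17 changed sign somewhere, none of them called. The actin covariate gave HSP90AA1 0.039, STIP1 0.21, ST13 0.13, FKBP5 -0.033, CDC37 0.10, INSIG1 -0.74, HSD11B1 0.41 and CXCR4 -0.13. Without the sows of high ALB, FKBP5 was -0.080, TRIM24 0.11 and HSD11B1 0.43. Array weights gave NCOA1 -0.0029, SCAP 0.17, EGFR -0.11, TSC22D3 0.17 and MYC -0.15. Without high prolificacy sows 2 and 3, NCOA1 was -0.011, SERBP1 -0.013, SCAP 0.15, EGFR -0.15, TSC22D3 0.13, MYC -0.28 and CTSD 0.018. The ALB covariate gave NCOA1 -0.061 and HSD11B1 0.14, the granulosa covariate HSD11B1 0.035, and the luteal covariate SCAP 0.070. SCAP was 0.0045 after quantile normalization and 0.0010 after median centring. Left-out sows gave FKBP5 -0.021 to 0.20, NCOA1 -0.021 to 0.14, SERBP1 -0.0069 to 0.15, SCAP -0.17 to 0.14, EGFR -0.034 to 0.24, HSD11B1 -0.23 to 0.13, TSC22D3 -0.17 to 0.015, XBP1 -0.090 to 0.013 and MYC -0.028 to 0.44. Without a sow the sign held but the size moved by over 1.5 times for several more, for example HSD11B2 0.28 to 0.82, INSIG1 0.18 to 1.10, RGS2 0.37 to 0.85 and HSD17B4 -0.30 to -0.029. Apart from the covariates and left-out sows themselves, the cause was not tested. The members other than PGRMC1 lay close to the level for testing, where signal over background limits what can be measured.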
